A study of Mus musculus with 29 samples.

Results

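The myogenic regulatory factors Myod1, Myog, Myf5 and Myf6 and 3 transcriptional regulators that act beside them in muscle, Pax7, Six4 and Eya4, were followed in the ageing tibialis anterior (TA), a fast muscle of the mouse hindlimb. The 7 genes were taken by symbol from the 22537 gene symbols of the count table, where each had 1 row. The mice were male C57BL/6 with no genetic change or drug treatment named, and all of them went through a battery of treadmill, wheel, grip, cling and rotarod tests before the muscles were frozen. Poly-A RNA of whole muscle was sequenced in 2 runs. The first run held 7 adult mice aged 6 months (6m) and 7 older mice aged 24 months (24m). The second run held 8 mice that the labels describe as 28 months or older (28m), together with a fresh preparation of each of the 7 adult mice. Old mice were always compared with the adult libraries of their own run. In whole muscle, fewer cells of one type and less RNA per cell cannot be told apart, and satellite cells are a small part of the tissue.

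Skeletal muscle fibres are long cells with many nuclei, and they are repaired and enlarged by satellite cells, the stem cells that lie between the fibre and its basal lamina. Quiescent satellite cells are marked by Pax7, a paired-box transcription factor that they need to persist. Activated satellite cells hold the proteins Myf5 and Myod1, basic helix-loop-helix factors that commit a cell to the muscle lineage. They then make Myog (myogenin), which drives withdrawal from the cell cycle and differentiation. Myf6 (MRF4) is the member of that family made most by mature fibres. Six4 is a homeobox factor that binds MEF3 elements in muscle promoters, and Eya4 belongs to the family of coactivator phosphatases that Six4 and its relatives recruit. In adult muscle Myod1, Myog, Myf6, Six4 and Eya4 are also transcribed by nuclei of the fibres, and Myog is known to rise when a fibre loses its nerve supply.

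The positions of the genes in GRCm38, the assembly that mm10 also names, were taken from GENCODE. Myod1 lies at chr7:46376474-46379099 on the plus strand and Myog at chr1:134289989-134292548 on the plus strand. Myf5 and Myf6 are neighbours on the minus strand of chromosome 10, at chr10:107482908-107486134 and chr10:107492853-107494737. Pax7 covers chr4:139737062-139833528, Six4 covers chr12:73099609-73113456 and Eya4 covers chr10:23102963-23350786, each on the minus strand. None of the 7 shares exonic bases with another annotated gene. Their exonic lengths differ widely. The 4 myogenic factors have short transcripts, with 1861 exonic bases for Myod1, 1495 for Myog, 2083 for Myf5 and 1263 for Myf6, whereas Pax7 has 5860, Six4 has 10855 and Eya4 has 9419.

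RefSeq promoter windows (GRCm38.p6, 250 bases before to 50 bases after a start) were at hand for 5 of the 7 genes and not for Myod1 and Myf6. They were searched for CANNTG, the E-box that basic helix-loop-helix factors recognise, which reads the same on both strands, and for TCAGGTT, the core of the MEF3 element, on both strands. The 2 motifs do not overlap in any of these windows. Myog is shown because its promoter held both. The stretch is chr1:134289754-134290003 on the plus strand, 5′ to 3′, up to the base before the start. Capitals mark, in order, an E-box at -138, the MEF3 letters at -84 and an E-box at -12 from the start.
Myog promoter: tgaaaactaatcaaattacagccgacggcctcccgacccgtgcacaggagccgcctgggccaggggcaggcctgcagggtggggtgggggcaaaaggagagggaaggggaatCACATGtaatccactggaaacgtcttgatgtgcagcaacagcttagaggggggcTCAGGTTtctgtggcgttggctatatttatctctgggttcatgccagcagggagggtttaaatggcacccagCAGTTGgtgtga
The MEF3 letters were also found in a window of Six4, on the reverse strand 97 bases before the first of its 2 listed starts. They are shown in capitals with 10 bases on each side, at chr12:73113326-73113352 on the minus strand.
Six4 window: gcctgggggaAACCTGAtcggccagat
The Eya4 window held 1 E-box, and those of Pax7 and Myf5 held neither motif. Of all 32851 promoter windows of this length, 72.3% held at least 1 E-box, 4.07% held the MEF3 letters and 3.06% held both, so an E-box alone is common and the pair seen in Myog is not. A match of letters is a description of the window and does not show that it is bound.

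Each library had between 17633475 and 33499162 counts on genes, with a median of 24250878. Levels are given as CPM, counts scaled to library size, with edgeR's TMM scaling over all 29 libraries. The tissue label was checked against fibre genes, and Myh4, the myosin of the fastest fibres, lay between 26038 and 71154 CPM in every library. Libraries differed in the share of counts on long transcripts. For each library the slope of its log2 CPM deviations on log2 exonic length was computed, and a negative slope means fewer counts on long genes. The 7 second-run 6m libraries had slopes between 0.107 and 0.146. The 8 libraries at 28m had slopes between -0.367 and 0.0699, none of them as high as the lowest 6m library of that run. Replicates 7, 3 and 5 at 28m were the lowest, at -0.367, -0.341 and -0.270. In the first run, replicate 4 at 24m (-0.421) and replicate 4 at 6m (-0.194) stood apart from the rest of their groups. Age and this slope therefore cannot be told apart at 28m. Among all genes with 1000 to 2500 exonic bases the median log2 fold change at 28m was 0.42, and among those with 5000 to 12000 bases it was -0.21. For this reason results at 28m are given also with a trend on length and GC content removed from each library.

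At 6m in the second run the order of levels per kilobase of exon was led by Myf6, with 66.1 ± 4.57 CPM per kilobase (SD, n = 7). Myod1 followed with 15.2 ± 9.67, Eya4 with 5.75 ± 1.56, Six4 with 2.80 ± 0.189, Myog with 1.66 ± 1.02, Myf5 with 0.852 ± 0.252 and Pax7 with 0.408 ± 0.0977 CPM per kilobase. The ranges of the 7 libraries did not overlap between Myf6 and Myod1, between Myod1 and Eya4 or between Eya4 and Six4. They overlapped between each of the later neighbours. At 28m the order was Myf6, Myod1, Myog, Eya4, Six4, Myf5 and Pax7, with Myog at 6.99 ± 5.50 CPM per kilobase (SD, n = 8), and only the steps from Myf6 to Myod1 and from Myf5 to Pax7 were without overlap.

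**Figure D1:**
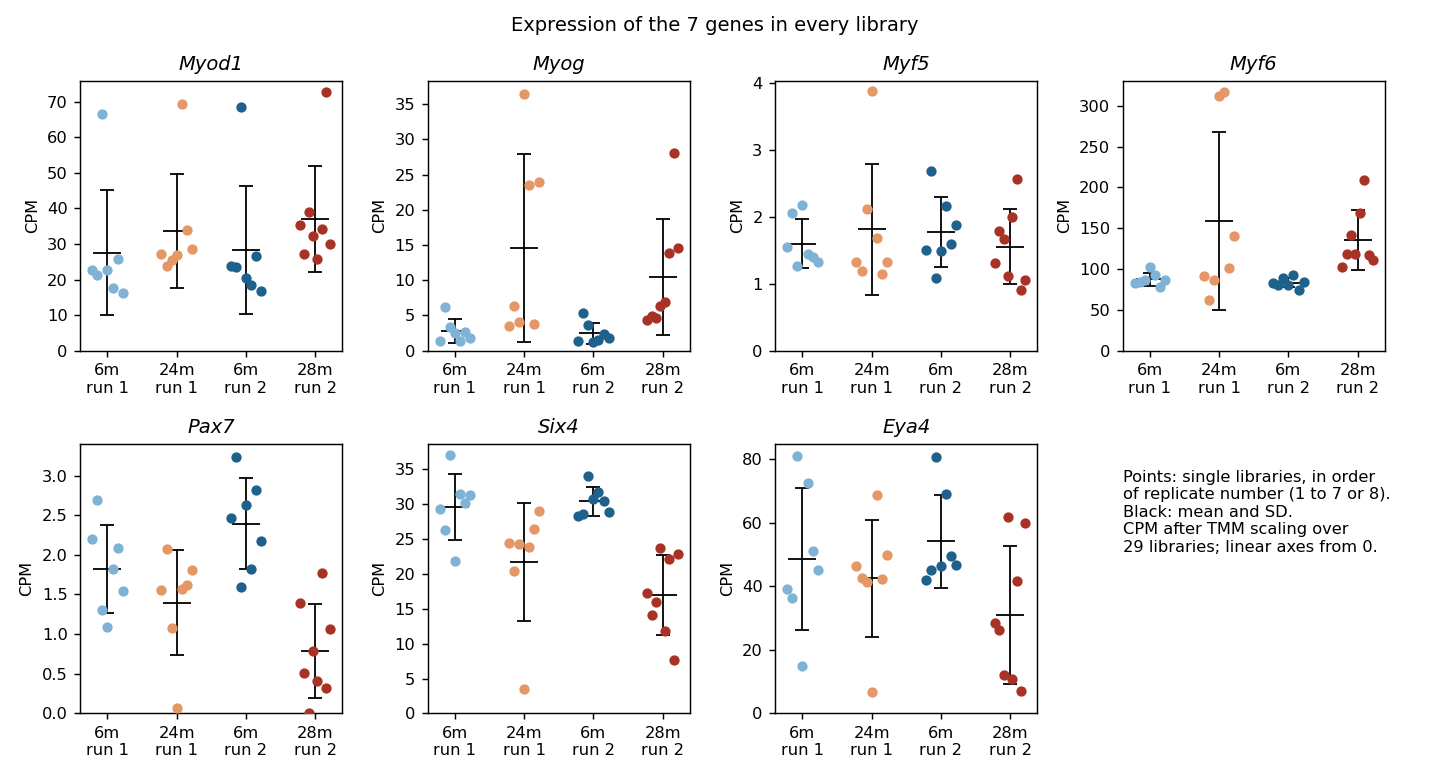
Level of each gene in CPM after TMM scaling (linear axes from 0) in the 29 libraries, by age and run, with points for single libraries and black bars for the mean and SD. At 28m all 8 libraries of Myf6 lie above and all 8 of Six4 lie below the 7 second-run libraries at 6m, and 7 of 8 lie below them for Pax7.

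In the second run 4 of the 7 genes differed between 28m and 6m. Myog and Myf6 were higher and Pax7 and Six4 lower, by the quasi-likelihood test of edgeR, adjusted over 12994 genes (Benjamini-Hochberg). These counts stand against a broad background, since 47.3% of all genes tested were called at 28m, 24.3% as higher and 22.9% as lower. Before adjustment 54.8% were under 0.05. The share of the 7 genes called is near that background. Once the length and GC trend was removed, 37.9% of all genes were called, and 4 of the 7. These were not the same 4, since Myog, Pax7 and Six4 were still called, Myf6 was not, and Myf5 was called lower.

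Myog, the differentiation factor, had the largest change of the 7 by edgeR, while by limma-voom that of Pax7 was larger (-2.19 against 1.96 for Myog). At 6m it lay between 1.19 and 5.37 CPM with a median of 1.84, and at 28m between 4.29 and 28.1 CPM with a median of 6.61. The groups overlapped, and 5 of the 8 libraries at 28m were above all at 6m. Replicates 6, 7 and 8 were the highest, at 13.8, 28.1 and 14.6 CPM. This was a log2 fold change of 2.09 (SE 0.46, 95% interval 1.12 to 3.06, adjusted p = 0.00248, edgeR), which is 4.25-fold. Myog was also a DEG by the limit of 1 on the absolute log2 fold change, which 5.7% of all genes tested passed together with the adjusted p. With the length and GC trend removed its log2 fold change was 1.62 (adjusted p = 0.0103, edgeR).

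Myf6, the factor of mature fibres, was higher by less but more evenly. It lay between 74.98 and 92.6 CPM with a median of 82.7 at 6m, and between 102 and 209 CPM with a median of 118 at 28m. Every library at 28m was above every second-run library at 6m, a full separation upward that 5.65% of all genes tested showed. Its log2 fold change was 0.71 (SE 0.14, 95% interval 0.42 to 1.005, adjusted p = 0.00140, edgeR). Myf6 has the shortest transcript of the 7, and 52.2% of all genes with 1000 to 2500 exonic bases were called higher at 28m. With the length and GC trend removed its log2 fold change was 0.17 (adjusted p = 0.505, edgeR), so the call did not hold.

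Myod1, the factor of commitment, did not pass the test at 28m. It lay between 16.8 and 68.4 CPM with a median of 23.5 at 6m, and between 25.7 and 72.6 CPM with a median of 33.2 at 28m. The groups overlapped, and replicate 3 at 6m and replicate 7 at 28m were far above the other libraries of their groups. The change between the ages was a log2 fold change of 0.40 (SE 0.29, 95% interval -0.22 to 1.02, adjusted p = 0.267, edgeR). Without replicate 3 at 6m it was 0.79 (adjusted p = 0.0100, edgeR), without replicate 7 at 28m it was 0.18 (adjusted p = 0.579, edgeR), and with the length and GC trend removed it was 0.05.

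Myf5, a factor of commitment like Myod1, had few counts, between 19 and 63 per library at 6m and between 25 and 61 at 28m. It lay between 1.08 and 2.69 CPM with a median of 1.60 at 6m, and between 0.907 and 2.57 CPM with a median of 1.496 at 28m. The groups covered nearly the same range. On the log2 scale the fold change was -0.19 (SE 0.24, 95% interval -0.69 to 0.31, adjusted p = 0.521, edgeR). With the length and GC trend removed it was -0.66 (adjusted p = 0.0488, edgeR), which passed the threshold.

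Pax7, the marker of satellite cells, had few counts too, between 28 and 76 per library at 6m and between 0 and 42 at 28m. It lay between 1.60 and 3.24 CPM with a median of 2.46 at 6m, and between 0 and 1.77 CPM with a median of 0.647 at 28m. All libraries at 28m except replicate 6 were below all second-run libraries at 6m. Replicate 3 at 28m had no count of Pax7, which allows a level of up to 0.144 CPM from 3 counts, and it had the second lowest length slope. The fitted log2 fold change was -1.60 (SE 0.43, 95% interval -2.50 to -0.70, adjusted p = 0.00718, edgeR), which is 0.329 of the level at 6m, and Pax7 was a DEG. It was -1.44 (adjusted p = 0.00960, edgeR) with the length and GC trend removed. Against the first-run libraries of the same 6m mice it was -1.22 (adjusted p = 0.0564, edgeR), which did not pass.

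Six4, the homeobox factor, fell, and was lower in each old mouse than in any second-run library at 6m. It lay between 28.3 and 34.05 CPM with a median of 30.5 at 6m, and between 7.62 and 23.6 CPM with a median of 16.6 at 28m. The groups did not overlap, a full separation downward that 6.66% of all genes tested showed. Its fitted log2 fold change was -0.84 (SE 0.18, 95% interval -1.23 to -0.46, adjusted p = 0.00233, edgeR). It was -0.53 (SE 0.13, adjusted p = 0.00546, edgeR) with the length and GC trend removed. Six4 has the longest transcript of the 7, and 36.7% of all genes with 5000 to 12000 exonic bases were called lower at 28m.

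Eya4, the coactivator, was spread widely within the old group. It lay between 41.9 and 80.6 CPM with a median of 46.7 at 6m, and between 7.08 and 61.8 CPM with a median of 27.4 at 28m. Of the 8 libraries at 28m, 6 were below all at 6m, while replicates 4 and 8, at 61.8 and 60.0 CPM, were within the range at 6m. The log2 fold change was -0.80 (SE 0.39, 95% interval -1.62 to 0.01, adjusted p = 0.0959, edgeR). It passed without replicate 4 at 28m (-1.02, adjusted p = 0.0333, edgeR), without replicate 8 at 28m (-1.01, adjusted p = 0.0369, edgeR) and with limma-voom (-1.14, adjusted p = 0.0300).

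**Figure D2:**
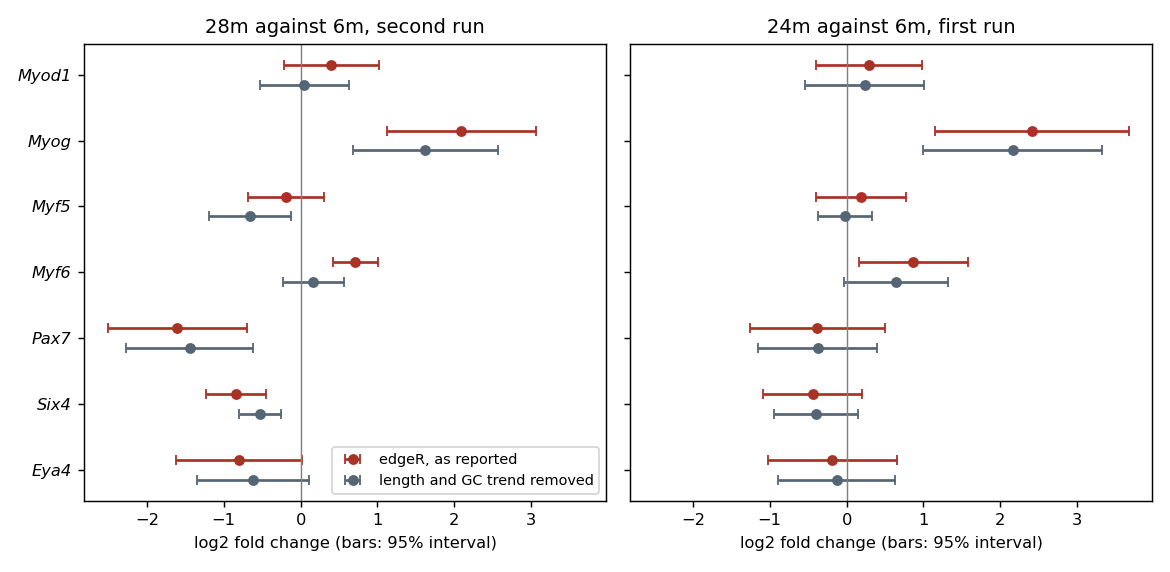
Log2 fold changes of the 7 genes with 95% intervals, at 28m against 6m (left) and 24m against 6m (right), by edgeR as reported (red) and after a length and GC trend was removed (grey). At 28m removing the trend moves Myf6 from 0.71 to 0.17 and Myf5 from -0.19 to -0.66, while the intervals of Myog, Pax7 and Six4 stay clear of 0.

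The length slope moved with Six4 and Eya4 within the old group as well as between the ages. The 3 libraries at 28m with the lowest slopes, replicates 3, 5 and 7, had Eya4 at 11.98, 10.7 and 7.08 CPM, the lowest of the group. The same 3 had Six4 at 15.96, 11.7 and 7.62 CPM, and the 2 highest slopes, of replicates 4 and 8, went with the 2 highest levels of both genes. Pax7 too was lowest in these 3 libraries, at 0, 0.409 and 0.327 CPM in replicates 3, 5 and 7. Above these 3 it did not follow the order of the slopes. Replicates 4 and 8 had 0.789 and 1.07 CPM, below replicates 1 and 6 with 1.39 and 1.77 CPM. When replicates 3, 5 and 7 at 28m were left out, a choice made after seeing the data, 4 of the 7 genes were still called. In that fit 4529 of all 13023 genes tested were called. Pax7 then had a log2 fold change of -1.10 (adjusted p = 0.00735), Six4 of -0.60 (adjusted p = 0.00238), Myog of 1.83 (adjusted p = 0.00466) and Myf6 of 0.67 (adjusted p = 0.00493), all by edgeR. Eya4 had -0.31 (adjusted p = 0.312, edgeR). When the slope of each library was a covariate, also chosen after seeing the data, 0 of the 7 genes and 479 of all genes were called by edgeR, with 3003 at an unadjusted p under 0.05. Myog then had a log2 fold change of 1.80 (SE 0.61, adjusted p = 0.101, edgeR) and Myf6 of 0.68 (SE 0.21, adjusted p = 0.0736, edgeR), sizes near those reported above. Pax7 had -0.32, Six4 -0.17 and Eya4 0.66. The slopes of the 2 ages do not overlap in this fit.

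**Figure D3:**
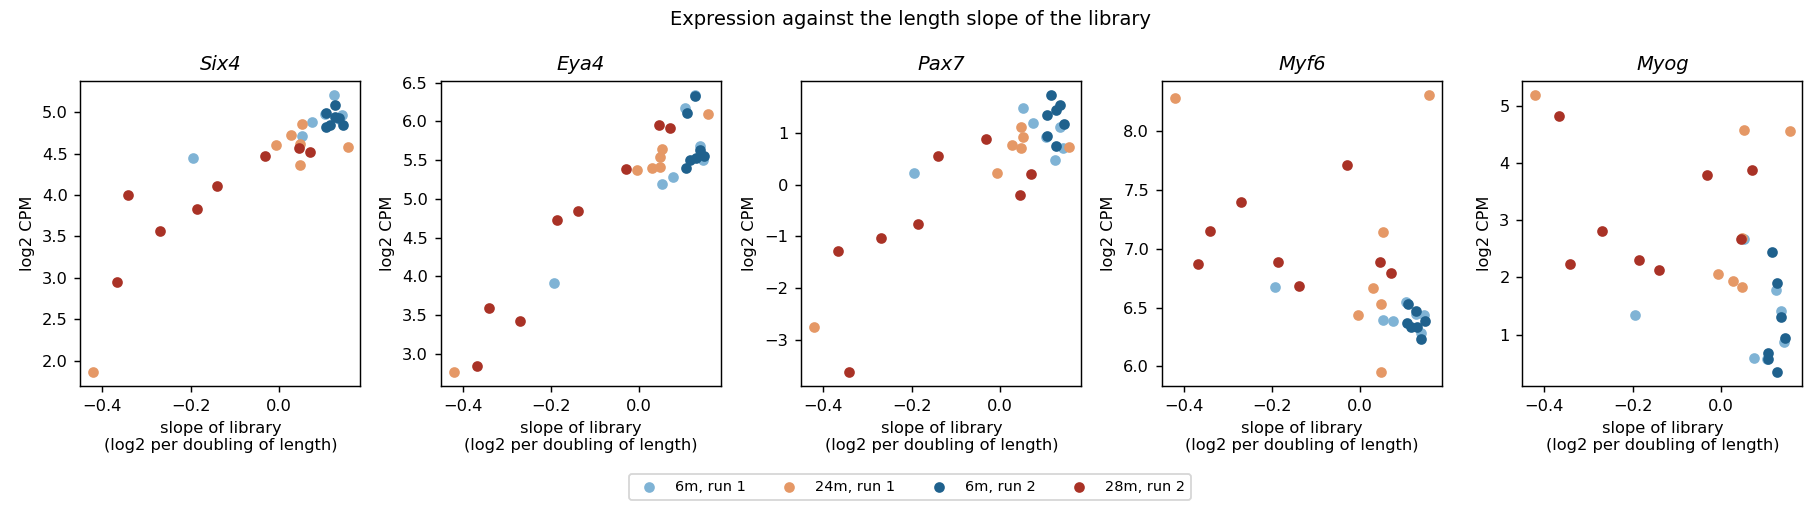
Log2 CPM of 5 of the genes (vertical axes) against the length slope of the library, in log2 units for each doubling of exonic length (horizontal axes), with 1 point for each of the 29 libraries. The 3 libraries at 28m with the lowest slopes have the lowest levels of Eya4 and of Pax7 in their group. The second-run 6m libraries all sit at slopes between 0.107 and 0.146.

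Within the 8 mice at 28m, Six4 and Eya4 varied together, with Pearson's r = 0.914 (exact permutation p = 0.000719, two-sided, adjusted p = 0.0302) and Spearman's rho = 0.976 (exact permutation p = 0.000397, adjusted p = 0.0167). The adjustment covers 42 pairs of the 7 genes within the 28m and the 24m mice, and this was the only pair to pass. Without the 2 libraries farthest from the median of Six4, r was 0.851. The pair no longer passed when any 1 of replicates 1, 4, 5, 6, 7 and 8 was left out. Both are long genes, both followed the length slope as described above, and the part of the slope in this relation was not tested. At 24m the r of 0.966 rested on replicate 4, and it was 0.0366 without the 2 libraries farthest from the median.

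Genes whose function is tied to these regulators were taken from lists. Among relatives of Pax7, Six4 and Eya4, Eya1, a coactivator of the same family as Eya4, fell at 28m (log2 fold change -0.89, SE 0.15, adjusted p = 0.000680, edgeR), as did Dach2, a cofactor of the same network (-0.80, SE 0.18, adjusted p = 0.00277, edgeR). Both are long genes, with 7808 and 9868 exonic bases, in the band where 36.7% of all genes were called lower. Both were called lower also with the length and GC trend removed, and Pax3 (0.63), the close relative of Pax7, was then called higher. The median log2 fold change over all genes tested was 0.01.

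Of 12 other markers of satellite cells 11 were tested, 3 fell and none rose at 28m, beside 22.9% of all genes tested that were called lower. Heyl, a Notch target made by quiescent satellite cells, had a log2 fold change of -0.87 (SE 0.15, adjusted p = 0.000711, edgeR). Fgfr4, a growth factor receptor of myoblasts, had -0.78 (SE 0.21, adjusted p = 0.00715, edgeR), and Chodl, a membrane lectin, had -0.61 (SE 0.19, adjusted p = 0.0138, edgeR). The other 8 tested did not pass, and the median of the list was -0.24. With the trend removed 3 were lower and 1 was higher, Itga7, a laminin receptor of fibres and satellite cells (0.52, adjusted p = 0.00260, edgeR). The summed level of the 12 markers was between 287 and 342 CPM at 6m and between 251 and 362 CPM at 28m, and several of them, such as Cd34 and Itga7, are also made by other cells of muscle. Markers of other cells moved at 28m too. Of 5 endothelial markers 4 fell (3 with the trend removed), with a summed level between 338 and 379 CPM at 6m and between 171 and 274 CPM at 28m. Of 5 fibroblast markers 3 fell (1 with the trend removed), with sums between 529 and 2784 CPM at 6m and between 313 and 1096 CPM at 28m. No marker of these lists was at 0 in any library of either group. Their part in the change of Pax7 was not tested.

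Of 18 partners and antagonists of the myogenic factors, 4 rose and 4 fell at 28m, shares near those of all genes tested (24.3% and 22.9%). With the length and GC trend removed 7 were called higher and 4 lower, beside 2423 of all 12994 genes called higher and 2503 lower. Those that rose were Mdfi, an inhibitor that holds myogenic factors in the cytoplasm (log2 fold change 1.29, SE 0.43, adjusted p = 0.0227, edgeR), and the inhibitors Id1, Id2 and Id3, which take up their dimer partners. Id2 had a log2 fold change of 1.09 (SE 0.25, adjusted p = 0.00302, edgeR). Among those that fell, Mef2a, a MADS-box factor that works with the myogenic factors, had -1.12 (SE 0.44, adjusted p = 0.0461, edgeR), and with the length and GC trend removed it had -0.85 (adjusted p = 0.0854, edgeR) and was not called. Mdfi, Id1, Id2 and Id3 were called higher with the trend removed as well.

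The next lists hold genes that the myogenic factors are known to switch on, and their counts stand beside 24.3% of all genes tested that were called higher at 28m. Of 12 genes of immature muscle and myoblast fusion 3 rose and none fell (4 rose with the trend removed), a share near that of all genes, and the list's median was 0.74. They were Runx1, a transcription factor of muscle that has lost its nerve (log2 fold change 1.60, SE 0.39, adjusted p = 0.00426), Myl4, the embryonic light chain (1.55, SE 0.34, adjusted p = 0.00232), and Tnnt2, a troponin T of heart and immature muscle (1.27, SE 0.31, adjusted p = 0.00433), by edgeR. The fusion genes Mymk and Mymx and the embryonic and neonatal myosins Myh3 and Myh8 did not pass, with log2 fold changes between 0.57 and 1.08.

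Of 6 genes of the acetylcholine receptor and the synapse 4 rose, beside the same 24.3%. Chrng, the fetal receptor subunit, went from 0.264 ± 0.352 CPM at 6m (SD, n = 7) to 3.15 ± 4.44 CPM at 28m (SD, n = 8), with a log2 fold change of 3.52 (SE 0.81, adjusted p = 0.00322, edgeR). Chrna1 rose by 1.84 (SE 0.46, adjusted p = 0.00489) and Chrnb1 by 0.68 (SE 0.17, adjusted p = 0.00522) on the log2 scale, by edgeR. Chrne, the adult subunit, was the fourth, and the calls of Chrnb1 and Chrne were lost with the length and GC trend removed. Of 8 genes of the mature contractile apparatus 5 rose, among them Mylpf (0.93, adjusted p = 0.000648), Tnni2 (0.80, adjusted p = 0.00541) and Tnnc2 (0.67, adjusted p = 0.0126), all short genes, by edgeR. Of all genes with 1000 to 2500 exonic bases 52.2% were called higher. After the trend was removed 2 of the 8 were higher and 1 was lower.

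Of 8 cell cycle genes 5 had enough counts to be tested, and 3 rose, beside 24.3% of all genes tested. Cdkn1a (p21), an inhibitor that stops the cycle and a target of Myod1, had a log2 fold change of 2.20 (SE 0.37, adjusted p = 0.000678, edgeR). Ccna2, a cyclin of dividing cells, had 1.81 (SE 0.48, adjusted p = 0.00702, edgeR) at 1.13 ± 0.961 CPM (SD, n = 8), and Top2a had 1.56 (SE 0.60, adjusted p = 0.0419, edgeR). Among fibre type markers 4 of 5 slow genes rose, 2 of 5 fast genes rose and 1 fell, beside 24.3% of all genes called higher and 22.9% lower. With the trend removed 2 slow genes were higher, no fast gene was higher and 2 fast genes were lower. Of the remaining lists, 1 of 5 tendon markers and 1 of 5 Schwann cell markers rose (1 of the former and 2 of the latter with the trend removed, where 1 Schwann cell marker was lower), and 0 of 4 immune markers tested passed.

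**Figure D4:**
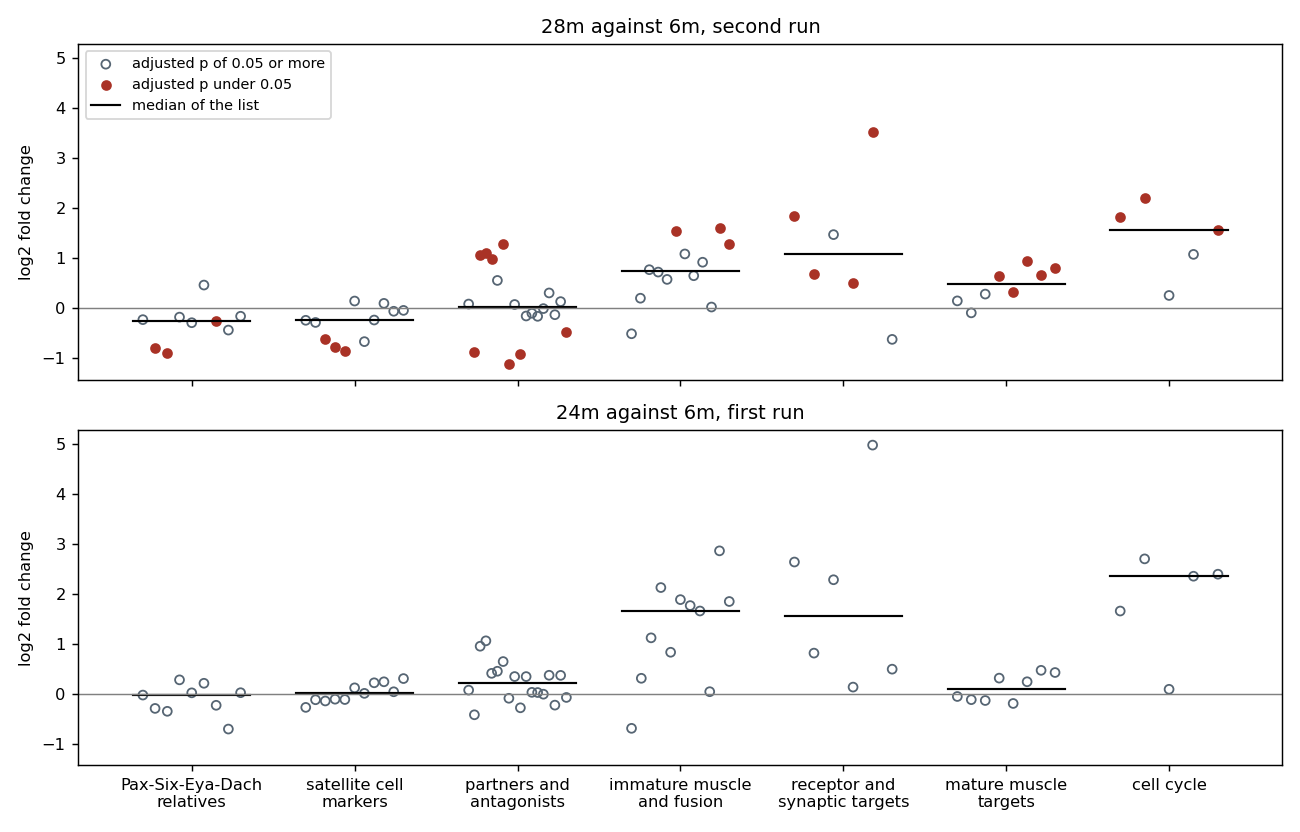
Log2 fold change of each tested gene of 7 lists (points) with the list median (bar), at 28m against 6m (top) and 24m against 6m (bottom), filled where the adjusted p was under 0.05. At 28m called genes of the receptor, immature muscle, mature muscle and cell cycle lists are higher, called relatives and satellite cell markers are lower, and at 24m no listed gene is called.

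In the first run none of the 7 genes passed between 24m and 6m by edgeR, where 0.084% of 13103 genes tested were called. The calls were higher in 0.0611% and lower in 0.0229% of these genes, and DEGs were 0.0611%. Myog and Myf6 were under 0.05 before adjustment, as were 11.8% of all genes tested. Myog lay between 1.40 and 6.27 CPM with a median of 2.44 at 6m, and between 3.49 and 36.5 CPM with a median of 6.38 at 24m. The groups overlapped, and the old mice fell apart into 3 high libraries, replicates 4, 5 and 7 at 36.5, 23.6 and 23.9 CPM, and 4 at 6.38 CPM or less. The log2 fold change was 2.41 (SE 0.59, 95% interval 1.14 to 3.67, adjusted p = 0.161, edgeR). By DESeq2 it was 2.41 with an adjusted p of 0.00247, which is the only call of these genes at 24m under the alternatives that were run.

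Myf6 showed a similar split at 24m. It lay between 77.6 and 102 CPM with a median of 86.4 at 6m, and between 61.8 and 317 CPM with a median of 101 at 24m. Replicates 4 and 5 at 24m, at 312 and 317 CPM, were above every other library of the series, and replicate 2, at 61.8 CPM, was below all at 6m. The log2 fold change was 0.87 (SE 0.33, 95% interval 0.16 to 1.58, adjusted p = 0.359, edgeR).

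Pax7 lay between 1.09 and 2.69 CPM with a median of 1.82 at 6m in the first run, and between 0.0664 and 2.07 CPM with a median of 1.57 at 24m. The groups overlapped except for replicates 3 and 4 at 24m, which were below all at 6m, the latter with 2 counts. The log2 fold change was -0.38 (SE 0.41, 95% interval -1.25 to 0.49, adjusted p = 0.683, edgeR). Six4 had -0.44 (SE 0.30, 95% interval -1.08 to 0.20, adjusted p = 0.542, edgeR), with levels between 21.8 and 37.0 CPM at 6m and between 3.55 and 29.04 CPM at 24m. Its lowest library by far was replicate 4 at 24m, that with the most negative length slope of the series. Myod1, Myf5 and Eya4 had log2 fold changes of 0.30 (95% interval -0.40 to 0.99), 0.19 (95% interval -0.40 to 0.78) and -0.19 (95% interval -1.03 to 0.65).

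When replicate 4 of both first-run groups was left out, 121 genes were called by edgeR, with 0 of the 7 among them and 2427 of all genes at an unadjusted p under 0.05. Six4 then had a log2 fold change of -0.31 (SE 0.09, adjusted p = 0.102, edgeR) and Myog of 1.96 (SE 0.60, adjusted p = 0.114, edgeR). No gene of the lists was called at 24m. The list of immature muscle had a median log2 fold change of 1.66 there and the receptor list 1.55, beside 0.03 over all genes tested, while that of satellite cell markers was 0.01. Levels of several genes of the first lists were uneven among the 24m mice, such as Runx1 at 25.6 ± 29.1 and Chrna1 at 87.8 ± 118 CPM (SD, n = 7). Others were less so, such as Chrnb1 at 74.0 ± 34.1 CPM (SD, n = 7). The cell cycle list had 2.35, the slow fibre markers 1.35 and the immune markers 1.02. The summed level of the 5 immune markers was between 15.1 and 50.8 CPM at 6m and between 13.99 and 144.7 CPM at 24m, none of the 5 was at 0 in a library, and their part in these medians was not tested.

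Whether the ages differ in their effect was tested in a model of all 29 libraries, and the difference of the effects did not pass for any of 13455 genes by edgeR, with 1611 at an unadjusted p under 0.05. Without replicate 4 at 24m 1657 genes passed and none of the 7 did, with Pax7 at -1.42 (SE 0.51, adjusted p = 0.0588, edgeR) and Six4 at -0.57 (SE 0.22, adjusted p = 0.0770, edgeR). With all libraries Pax7 came nearest among the 7, with a difference of -1.21 on the log2 scale (28m effect minus 24m effect, SE 0.62, 95% interval -2.47 to 0.06, unadjusted p = 0.0606, adjusted p = 0.430). For Myog the difference was -0.32 (95% interval -1.87 to 1.23) and for Six4 -0.38 (95% interval -1.11 to 0.34). These intervals are wide, and the fit counts the 6m libraries of a mouse as separate samples. With limma-voom and the mouse as a block the difference for Pax7 was -1.41 (SE 0.70, adjusted p = 0.244), and no gene passed.

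The 7 mice at 6m were prepared in both runs, which gives the error of the measurement itself for each gene. None of the 7 genes passed the test between the runs, and 0 of 12884 genes tested were called by edgeR, with 357 at an unadjusted p under 0.05. The fit with the mouse as a block called none either, with 1052 at an unadjusted p under 0.05. Pax7 was higher in the second preparation in each of the 7 mice, by between 0.0063 and 1.27 log2 units with a median of 0.29, and its log2 fold change in the blocked fit was 0.38 (SE 0.13, adjusted p = 0.498, edgeR). Myod1 returned within 0.15 log2 units in every mouse, although the mice differed among themselves with an SD of 0.67 log2 units. The high Myod1 of replicate 3 at 6m was in both preparations, at 66.6 and 68.4 CPM. For Myf5, Myf6, Pax7, Six4 and Eya4 the SD of the change between preparations was larger than the SD between mice, for example 0.41 against 0.31 log2 units for Myf5 and 0.12 against 0.098 for Myf6. The first is the SD of a difference of 2 libraries and the second that of their mean, so noise alone makes the first larger. These SDs therefore do not rank the error of measurement against the differences between mice. Mouse 4 changed most for 5 of the genes. From the first to the second preparation its Eya4 moved by 1.63, Pax7 by 1.27, Six4 by 0.50, Myf6 by -0.34 and Myog by -1.04 log2 units. Its first library is the one with a length slope of -0.194, and the long genes were the ones higher in the second. In the other 6 mice Eya4 changed by at most 0.31, Six4 by at most 0.12 and Myf6 by at most 0.056 log2 units. The SDs of the change of these 3 genes therefore rest mainly on mouse 4.

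**Figure D5:**
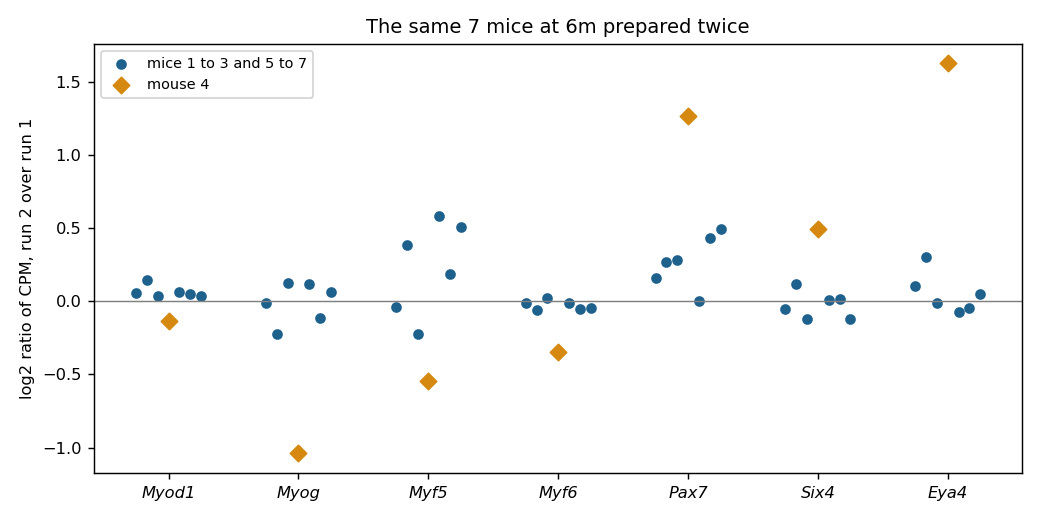
Log2 ratio of CPM in the second over the first preparation for the 7 mice at 6m (points, 1 for each mouse) and each of the 7 genes, with mouse 4 as a diamond. Myod1 stays within 0.15 of 0 in all mice, and in mouse 4 Eya4, Pax7 and Six4 are higher and Myog and Myf6 lower in the second preparation.

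For each of the 7, the genes most like it were sought by Pearson's r of deviations from the age means over 22 mice and 13454 genes. The points share libraries with different depth and length slope, and r is given as a description. Myog was closest to Runx1 (r = 0.847), Pgd (0.826) and Cdkn1a (0.820). Myod1 was closest to Atoh8 (0.798), Chrna9 (0.734) and Nfil3 (0.694). Myf5 was closest to Ephx4 (0.842), 9530080O11Rik (0.833) and Uxs1 (0.800), and Myf6 to Aebp2 (0.946), Tekt1 (0.943) and Arl6ip5 (0.940). Eya4 was closest to Dpp8 (0.985), Mef2a (0.978) and Npc1 (0.9747), Six4 to Trappc8 (0.981), Ipo7 (0.980) and Nckap1 (0.977), and Pax7 to Fam48a (0.926), Shroom2 (0.923) and Plekhg5 (0.922).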

How the data were processed

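Poly-A RNA of TA muscle was sequenced in 29 libraries from 22 mice, of which the 7 mice at 6m were prepared in both runs. The authors mapped the reads with STAR 2.5.4b to mm10, counted them per gene with its own counter and deposited raw counts without normalization. Which strand setting was counted is not given in the sources used here. The series' design text exchanges the numbers of mice at 24m and 28m, and the labels of the single samples were followed. The labels and the methods give different amounts of input RNA.

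Tests were run in edgeR 4.0.16 under R 4.3.3, with filterByExpr, TMM scaling, the quasi-likelihood test and Benjamini-Hochberg adjustment at 0.05 over all genes tested, within each run. Each of the 7 genes passed the filter in every comparison. CPM were scaled over all libraries, and log2 CPM used a prior count of 2. Total counts set the precision, and floors of 3 counts cover counting error only. Exonic length and GC content came from GENCODE M21, with 20205 genes matched by symbol, 1880 by synonym and 452 unmatched. The trend was removed by offsets from splines with 5 degrees of freedom for length and for GC. Libraries of a mouse were paired by title, and at 6m deviated together (correlations 0.218 to 0.814 over 7 mice). Fits were tested on simulated data.

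The 7 genes and the lists were chosen with earlier results of these data known. Named were the 7, at most the 3 called genes of each main list with the largest change, and the 3 genes most like each of the 7. Id1, Id3, Chrne, Pax3, Cd34, Itga7, Mymk, Mymx, Myh3, Myh8 and Atp2a1 were named beyond that rule after their values were seen. Alternatives were DESeq2 1.42.0, limma-voom 3.58.1, other scalings and filters, the 6m libraries of the other run, the length and GC trend, the mouse as a block and leaving out libraries, and, added after seeing the data, the length slope as a covariate and the removal of the 3 libraries at 28m with the lowest slopes. Some results of 1 list are not reported here.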

Additional observations from a re-analysis of the deposited data

Results flagged for a closer look

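Single libraries stood apart from their group by the gap to the nearest library over the range of the group, against Dixon's critical values, in 10 of 36 groups of values examined. These critical values are passed in about 1 of 20 groups when values are normal and groups independent. Levels were in CPM without logs, and the same mice and libraries enter several groups, so that rate does not apply here. For Myod1 this was the highest library of each of the 4 groups, replicate 3 at 6m in both preparations (66.6 CPM in the first run and 68.4 in the second), replicate 5 at 24m (69.4 CPM) and replicate 7 at 28m (72.6 CPM). The next highest libraries of these groups were at 25.8, 26.7, 34.01 and 38.9 CPM. For Myog it was replicate 2 at 6m in the first run (6.27 CPM) and replicate 7 at 28m (28.1 CPM). Replicate 4 at 24m stood apart with high Myf5 (3.88 CPM), low Six4 (3.55 CPM) and a length slope of -0.421, and replicate 4 at 6m in the first run with a length slope of -0.194. What sets these libraries apart was not tested.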

How the results depend on the processing

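Among the alternatives, the number of the 7 genes called at 28m was 4 in the main test and moved to 0 with the length slope as a covariate, where Myog (1.80) and Myf6 (0.68) had log2 fold changes near the main ones and Pax7 (-0.32) and Six4 (-0.17) did not. At 24m it was 0 and moved to 1 by DESeq2. In the 15 fits that left out 1 library it was between 4 and 5 at 28m, and the number of correlated pairs was between 0 and 1. Over all genes, calls at 28m were 6140 and fell to 2981 against the other run's 6m libraries and to 479 with the slope covariate. At 24m the 11 calls became 215 by DESeq2, 46 against the other run, 19 with the length and GC trend removed, 77 with the slope covariate, 4 with at least 10 counts in every library, 121 without both replicates 4, and between 4 and 30 with 1 library left out. DEGs at 28m were 741 and became 384 against the other run, 396 without the 3 libraries at 28m with the lowest slopes and 136 with the slope covariate. The difference of the age effects went from 0 to 1657 calls without replicate 4 at 24m, with 0 of the 7 among them.

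Signs turned only for values that were not called. With the slope covariate these were Myod1 (-0.085) and Eya4 (0.66) at 28m, Myf5 (-0.10) and Eya4 (0.16) at 24m, and Six4 (0.34) and Eya4 (0.38) in the difference. With the length and GC trend removed they were Myf5 at 24m (-0.020) and Myod1 in the difference (-0.18). Without both replicates 4, Myf5 at 24m had -0.036. In the difference Myf6 had 0.089 by limma-voom and 0.089 with the mouse as replicate block. Between the runs, with the block and the trend removed, Myf6 had 0.071 and Six4 -0.026. With 1 library left out, log2 fold changes at 24m were between -0.12 and 0.27 for Myf5 and between -0.35 and 6.1e-05 for Eya4. In the difference they were between -0.11 and 0.38 for Myod1, -0.73 and 0.13 for Myog, and -0.29 and 0.12 for Myf6, and between the runs -0.027 and 0.070 for Six4. The causes were not tested. The block changed no call. It raised the genes at an unadjusted p under 0.05 from 357 to 1052 between the runs, and from 1614 to 2865 in the difference, both by the same method.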

Other observations

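Fibre type genes, which the account above gives only as counts, moved in both directions at 28m. Myh4, the fastest myosin, fell with a log2 fold change of -0.48 (SE 0.14, adjusted p = 0.0119), and Pvalb (0.62, SE 0.18, adjusted p = 0.0126) and Tnnt3 (0.47, SE 0.12, adjusted p = 0.00706), a calcium buffer and a troponin of fast fibres, rose by edgeR. With the length and GC trend removed Myh4 had -0.31 (adjusted p = 0.0456, edgeR), and neither Pvalb (-0.05) nor Tnnt3 was called, while Atp2a1, the calcium pump of fast fibres, was (-0.38, adjusted p = 0.0333, edgeR, against -0.33, adjusted p = 0.0560, before). Of the slow genes, Myl2 (1.48, adjusted p = 0.00532), Tnni1 (1.31, adjusted p = 0.0271) and Tnnc1 (1.16, adjusted p = 0.00418) rose most by edgeR, at mean levels under 10 CPM. With the trend removed 2 of the 5 slow genes were called, Myl2 (1.05) and Tnni1 (1.204), and Tnnc1 had 0.51 (adjusted p = 0.0587, edgeR). The summed level of the 5 slow markers was between 8.84 and 26.7 CPM at 6m in the second run, and between 14.7 and 51.4 CPM at 28m.

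Among other cells, Kdr (-1.29, SE 0.19, adjusted p = 0.000389) and Cdh5 (-0.87, SE 0.16, adjusted p = 0.000919), both of endothelium, fell at 28m, and so did Col1a1 (-1.88, SE 0.59, adjusted p = 0.0160), a fibrillar collagen of fibroblasts, by edgeR. Scx, a transcription factor of tendon cells, rose (1.07, SE 0.18, adjusted p = 0.000718, edgeR), while the other 4 tendon markers did not pass and the median of the list was -0.28. Kdr, Cdh5, Col1a1 and Scx were called in the same direction with the length and GC trend removed.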
